A study of Mus musculus with 12 samples.

Results

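Serine and glycine starvation without radiation was examined in 4T1 cells, a mouse mammary carcinoma line without functional p53, by sequencing of ribosome-depleted total RNA from 3 cultures without both amino acids (-SG, replicates 4, 5 and 6) and 3 cultures in complete medium (Ctr, replicates 1, 2 and 3). These 6 libraries are all the non-irradiated ones of the 12 in the series and were picked by their labels alone. All cells had a defined medium with glutamine, alanine, proline, glutamate, aspartate, asparagine and dialysed serum, so that only serine and glycine differed. RNA was taken at 24 h in all 4 groups, which for irradiated cells means 24 h after the dose. The interval between the change of medium and the dose is not stated for these cultures. In other assays of these cells the authors changed the medium and then irradiated. The other 6 libraries, IR -SG and IR, received 5 Gy and were used to share the estimate of spread and to repeat the contrast. The replicates came from a single experiment on a single cell line, so that p-values measure the spread between 3 cultures of each kind. Of 20587 genes in the table, the 14592 that reached 10 normalized counts in 3 or more of the 12 libraries were tested. A normalized count is a read count divided by the size factor of its library.

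Serine and glycine are non-essential amino acids that proliferating cells take up and also make from glucose, and that supply protein synthesis, glutathione, lipids and the one-carbon units of nucleotides. When uncharged tRNA builds up, the kinase GCN2 phosphorylates the initiation factor eIF2 alpha, general translation slows and translation of the transcription factor ATF4 increases. This branch is part of the integrated stress response, and ATF4 is known to induce amino acid synthesis, amino acid import and tRNA charging. The kinase complex mTORC1, which senses amino acids at the lysosome, promotes ribosome production and lipid synthesis and restrains autophagy when nutrients are present.

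The libraries held 12540160, 20066659 and 15699639 reads in genes for -SG, against 19233831, 16138712 and 19507587 for Ctr. Replicate 6 of -SG stood apart from the other -SG cultures, with a chi-square per gene of 7.76 and 12.2 against replicates 4 and 5, where the other pairs of the series gave 1.56 to 3.28. Its differences ran with GC content, with a rank correlation across genes of -0.49 for replicate 4 minus replicate 6 and -0.64 for replicate 5 minus replicate 6, and with gene length, with a rank correlation of 0.50 for both. Replicates 1 and 3 of Ctr held low levels of some hair follicle, skin and macrophage messages that were lower in the other libraries. The summed level of 7 genes of the hair follicle inner root sheath, keratins and trichohyalin, was 39.9, 13.3 and 22.4 normalized counts in -SG and 262, 43.6 and 299.9 in Ctr, and that of 7 macrophage genes was 6.66, 1.67 and 4.28 in -SG and 74.8, 3.19 and 130.2 in Ctr. These 14 genes were chosen after their values were seen. Of 6 fibroblast markers, Col3a1, a collagen picked after its values were seen, was at 5.33, 1.67 and 4.28 in -SG and 90.8, 5.31 and 125 in Ctr, while Pdgfra was at 301, 231 and 240.5 in -SG and 202, 182 and 179 in Ctr and the 6 summed to 339, 255 and 274 in -SG and 410.3, 207 and 415 in Ctr. The sum was between 415 and 536 in the 6 irradiated libraries. Krt5, a basal keratin, was at 3.99, 0.833 and 3.21 in -SG and 65.9, 2.13 and 36.1 in Ctr. Counts are also given without -SG replicate 6, and with Ctr replicate 2 as the only Ctr library. The second of these fits leaves a single Ctr library, so that fewer calls can follow from the smaller group alone. Of the epithelial markers all 10 were expressed, while adipocyte markers were not in the table and endothelial markers summed to at most 5.83 in -SG and 11.4 in Ctr.

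Of the tested genes, 3700 were higher in -SG (25.4%) and 3713 were lower (25.4%), so that 50.8% of the tested genes changed at an adjusted p under 0.05. The libraries of the groups did not overlap for 8066 genes (55.3%). Most changes were small: the median size among changed genes was 0.38 on the log2 scale, and 11.7% of them reached 2-fold. Large changes were more often rises, with 597 genes at least 2-fold higher (4.09%) and 271 at least 2-fold lower (1.86%). Without -SG replicate 6, 3889 genes were higher and 3907 lower, and 6850 genes were called in both fits, all with the same sign. With Ctr replicate 2 as the only Ctr library, 2635 genes were higher and 2455 lower, 602 and 236 of them by at least 2-fold, and the 5000 genes called in both fits had the same sign.

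The largest rises among protein-coding genes whose higher group averaged 100 normalized counts or more joined stress genes, detoxifying enzymes and genes of stratified epithelium. Cox6a2, the heart and muscle isoform of a cytochrome c oxidase subunit, had 125, 151 and 171 normalized counts in -SG libraries, against 0, 1.06 and 0 in Ctr libraries. This was 435 reads in the 3 -SG libraries together and 1 read in the 3 Ctr libraries, a ratio of 482 with a 95% counting interval of 86.1 to 19089.8. Dsg3, a cadherin of desmosomes, had 164, 167 and 128 normalized counts in -SG libraries, against 5.34, 2.13 and 0.880 in Ctr libraries. Scara5, a ferritin receptor, had 394, 454 and 376 normalized counts in -SG libraries, against 16.9, 14.9 and 22.9 in Ctr libraries. Niban1, a stress-induced regulator of translation, had 2949, 3124 and 2755 normalized counts in -SG libraries, against 193, 244 and 211 in Ctr libraries, or 3.77 ± 0.07 as log2 fold change with its SE (adjusted p = 9.62e-17). Atf5, a transcription factor of the ATF4 family, had 4900.3, 4692 and 5386 normalized counts in -SG libraries, against 567, 596 and 589 in Ctr libraries, a log2 fold change of 3.09 ± 0.06 (adjusted p = 2.76e-16). The other leading rises were Gsta2 (4.96), Angptl6 (4.57), Cdsn (3.94), Krt16 (3.88), Aldh1l2 (3.50), Mab21l4 (3.37), Gsta4 (3.33), Anxa8 (3.15), Lrrc75b (3.11) and Fut1 (3.02), all as log2 fold changes.

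The 15 leading falls were smaller in size, with log2 fold changes from -2.57 to -1.60. Rgs16, a GTPase activator that dampens G protein signals, had 471, 446 and 459.6 normalized counts in -SG libraries, against 2639.7, 2683 and 2858 in Ctr libraries, a log2 fold change of -2.57 ± 0.06 (adjusted p = 6.66e-16). S100a7a, a calcium-binding S100 protein, had 54.6, 69.1 and 63.1 normalized counts in -SG libraries, against 342, 318 and 337 in Ctr libraries. F2rl1, the protease-activated receptor PAR2, had 306, 279 and 259 normalized counts in -SG libraries, against 1006, 1001 and 975 in Ctr libraries. No overlap between the groups was a condition for the leading falls as well. Apln, the secreted peptide apelin, had 584, 607 and 529 normalized counts in -SG libraries, against 1711, 1769.7 and 1768 in Ctr libraries, and Hmga1, an architectural chromatin protein, had 911, 854 and 1124 normalized counts in -SG libraries, against 2919, 2921 and 2911 in Ctr libraries. The remaining falls of the leading 15 were Dll4 (-2.14), Mmp3 (-1.91), Irf8 (-1.77), Scd1 (-1.76), Acap1 (-1.74), Has2 (-1.70), Upp1 (-1.68), Fzd9 (-1.67), Mfsd2a (-1.63) and Itgb2 (-1.60) on the log2 scale. All 30 leading genes were also called in the same direction with Ctr replicate 2 as the only Ctr library.

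**Figure D1:**
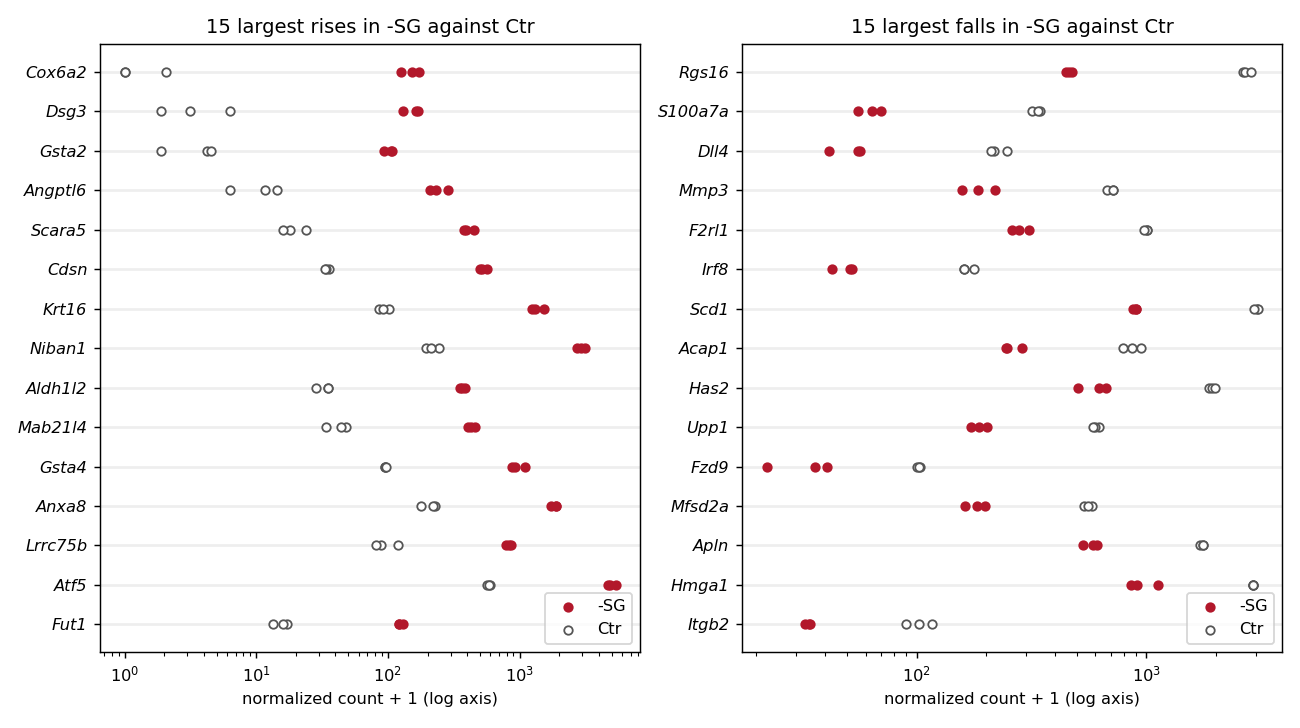
Normalized counts plus 1 on a log axis for the 15 largest rises (left) and 15 largest falls (right), with each -SG library as a filled red point and each Ctr library as an open grey point. No overlap between the groups was a condition for picking the 30 genes. Cox6a2, at 125 to 171 in -SG, is at 0 to 1.06 in Ctr.

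Among messages with high counts that changed at least 2-fold, the fall of vimentin was set against rises of Sqstm1 and Krt14. Vim, the intermediate filament of mesenchymal cells, had 24001, 22675 and 25142 normalized counts in -SG libraries, against 53472, 55005 and 54459 in Ctr libraries, a log2 fold change of -1.18 ± 0.04 (adjusted p = 3.8e-13). Sqstm1, the autophagy receptor p62, had 22782, 22001 and 24884 normalized counts in -SG libraries, against 6333, 6281 and 6234 in Ctr libraries, a log2 fold change of 1.88 ± 0.04 (adjusted p = 2.77e-16). Krt14, a keratin of basal epithelium, had 15767, 15615 and 17589 normalized counts in -SG libraries, against 3267, 3199 and 3391 in Ctr libraries, a log2 fold change of 2.31 ± 0.05 (adjusted p = 3.43e-16). Ccnd1, which encodes cyclin D1, had 13850.3, 13825 and 13179 normalized counts in -SG libraries, against 28257, 28851 and 28268 in Ctr libraries, and Tm4sf1, a cell surface tetraspanin-like protein, had 4132, 4120.4 and 4381 normalized counts in -SG libraries, against 9212, 9122 and 9118 in Ctr libraries. Both fell by a little over 2-fold, with log2 fold changes of -1.06 and -1.12.

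Genes of the integrated stress response rose together in -SG cells. Of 12 tested regulators of this response, transcription factors and the pseudokinase Trib3, 10 were higher and 2 lower, with a median log2 fold change of 1.00, beside a median of -0.0031 over all tested genes. Trib3, which feeds back on ATF4, had 2117, 2140.1 and 2335 normalized counts in -SG libraries, against 492, 560.1 and 540.1 in Ctr libraries, a log2 fold change of 2.05 ± 0.06 (adjusted p = 2.08e-14). Ddit3, which encodes the factor CHOP, had 406, 381 and 459.6 normalized counts in -SG libraries, against 144, 138 and 151 in Ctr libraries, and Klf4 had 447, 458 and 469 normalized counts in -SG libraries, against 164, 170.1 and 162 in Ctr libraries. Myc and Bhlhe40 were the members that fell, with log2 fold changes of -0.25 and -0.43. Of 16 tested effectors, 15 were higher, 13 of them by at least 2-fold, and the median was 1.47. Vldlr, a lipoprotein receptor, had 649.6, 645 and 561 normalized counts in -SG libraries, against 85.4, 70.2 and 80.04 in Ctr libraries, a log2 fold change of 2.96 ± 0.10 (adjusted p = 9.88e-14). Fgf21, a secreted stress hormone, was low in both groups, with 42.6, 32.5 and 37.4 normalized counts in -SG libraries, against 0.890, 4.25 and 2.64 in Ctr libraries. Fgf21 and Soat2, another effector, were under 10 in every Ctr library and met the count filter through other libraries. A fall could hardly be called for them. Tnfrsf10b, a death receptor known as a CHOP target, was the effector that fell (-0.42). Among the kinases and phosphatase subunits that act on eIF2 alpha and the parts of eIF2B, 4 of 14 rose and 5 fell. Ppp1r15a, the stress-induced subunit that restores eIF2 alpha by dephosphorylation, had 474, 431 and 492 normalized counts in -SG libraries, against 182, 190.3 and 183 in Ctr libraries, and Eif2ak4, which encodes GCN2, had 813, 796 and 746 normalized counts in -SG libraries, against 1098, 1054 and 1095 in Ctr libraries. The GCN2 message was thus the lower one in -SG, with a log2 fold change of -0.46 ± 0.04 (adjusted p = 1.33e-07).

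ATF4 binds CCAAT/enhancer-binding protein and ATF response elements, and the letters TGATGNAA (TTNCATCA on the other strand) were searched in RefSeq promoters of the GRCm38.p6 build, from 250 bases before to 50 after a gene start. They were held by 40% of the 10 regulator genes of the response with a promoter in the table, by 41.7% of 12 effector genes, by 33.3% of 15 genes of cytosolic tRNA charging and by 20% of 15 plasma membrane amino acid transporter genes. The share was 2.67% of the 9758 tested genes with a promoter and 3.97% of all 32851 promoters in the table, or 4.51% of all genes with one. The lists were written from general knowledge of these pathways, so their members may include genes known through this element. Their shares are therefore not a result of the starvation data. Nupr1 is a holder in both stress response lists. The matches of the 3 members with the largest rise among those holding one are shown to place the element in genes that rose. All 3 matched on the strand opposite to the gene, and capitals mark the match.
Fgf21 (chr7:45615522-45615729, minus strand, match beginning 139 bases before the start): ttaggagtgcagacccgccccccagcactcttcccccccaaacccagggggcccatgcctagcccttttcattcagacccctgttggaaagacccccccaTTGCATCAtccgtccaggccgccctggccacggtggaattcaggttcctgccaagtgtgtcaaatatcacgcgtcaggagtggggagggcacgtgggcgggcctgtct
Vldlr (chr19:27216770-27216927, plus strand, match beginning 200 bases before the start): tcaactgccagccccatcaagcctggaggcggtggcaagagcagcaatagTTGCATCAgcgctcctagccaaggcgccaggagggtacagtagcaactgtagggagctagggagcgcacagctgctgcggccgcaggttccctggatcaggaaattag
Trib3 (chr2:152344031-152344146, minus strand, match at base 15 after the start): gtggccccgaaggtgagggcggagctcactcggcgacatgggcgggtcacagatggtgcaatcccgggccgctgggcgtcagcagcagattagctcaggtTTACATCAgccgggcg
Holding the letters did not go with the size or sign of the change in each case, as 5 genes picked after their values were seen show. Slc7a7 held them and fell (-0.78), Iars held them with a log2 fold change of 0.18, and Niban1 (3.77), Atf5 (3.09) and Slc6a9 (2.86) did not hold them in this window. A match is a description of the letters and was not tested as a binding site.

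Of 19 tested amino acid transporters of the plasma membrane, 11 rose and 3 fell, and the list was led by a carrier of glycine. Slc6a9, the glycine transporter GLYT1, had 1869, 1846 and 1949 normalized counts in -SG libraries, against 263, 266 and 248 in Ctr libraries, a log2 fold change of 2.86 ± 0.05 (adjusted p = 9.62e-17). Slc1a4, the neutral amino acid transporter ASCT1 that carries serine, had 1877, 1879 and 1883 normalized counts in -SG libraries, against 909.6, 864 and 887 in Ctr libraries, a log2 fold change of 1.08 ± 0.04 (adjusted p = 4.86e-13). Slc7a11, the cystine and glutamate exchanger, had 1354, 1467 and 1036 normalized counts in -SG libraries, against 433, 427 and 400.2 in Ctr libraries, and Slc43a2, a carrier of large neutral amino acids, had 371, 368 and 384 normalized counts in -SG libraries, against 119, 113 and 138 in Ctr libraries. Slc7a11 was lowest in replicate 6 among the -SG libraries, yet above every Ctr library. Slc7a6 and Slc7a7, exchangers of cationic and neutral amino acids, fell, with log2 fold changes of -0.58 and -0.78. Of the Serinc family, proteins first linked to the insertion of serine into membrane lipids, Serinc5 had 1455, 1401 and 1288 normalized counts in -SG libraries, against 613, 609 and 603 in Ctr libraries, and Serinc3 had 2725, 2776 and 2469 normalized counts in -SG libraries, against 1539, 1472 and 1490.1 in Ctr libraries.

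Among serine and glycine enzymes, Psph and Srr rose, while Shmt1, Gcat and Gcsh fell. Psph, the last enzyme of serine synthesis, had 3648, 3654 and 3769 normalized counts in -SG libraries, against 1463, 1538 and 1434 in Ctr libraries, and Srr, which forms D-serine from serine, had 149, 159.9 and 190.2 normalized counts in -SG libraries, against 96.1, 80.8 and 65.97 in Ctr libraries. Shmt1, the cytosolic enzyme that interconverts serine and glycine, had 1058, 1040.1 and 1051 normalized counts in -SG libraries, against 1962, 2005 and 2057 in Ctr libraries, a log2 fold change of -0.93 ± 0.05 (adjusted p = 2.52e-11). Gcat and Gcsh, mitochondrial enzymes of glycine formation from threonine and of glycine cleavage, fell as well (-0.82 and -0.44). Over the 11 tested serine and glycine enzymes 6 rose and 3 fell. Some mitochondrial enzymes of the folate list rose: Aldh1l2, which oxidises 10-formyltetrahydrofolate in mitochondria, had 382, 355 and 366 normalized counts in -SG libraries, against 33.8, 34.01 and 27.3 in Ctr libraries, and Mthfd2 and Mthfd1l had log2 fold changes of 0.48 and 0.36. The mitochondrial folate carrier Slc25a32 fell (-0.68), as did thymidylate synthase, Tyms (-0.68). Over the 15 tested genes of the folate list 4 rose and 7 fell, with a median of -0.13. Among proline, asparagine and glutamate enzymes, 4 of 17 rose, namely Gpt2, Pycr1, Asns and Aldh18a1, and 11 fell. Gpt2, the mitochondrial alanine aminotransferase, had 3449, 3428 and 3580.5 normalized counts in -SG libraries, against 1059, 966 and 932 in Ctr libraries, and Pycr1, the mitochondrial last enzyme of proline synthesis, had 728, 743 and 749 normalized counts in -SG libraries, against 212, 229.6 and 205 in Ctr libraries. Asns, asparagine synthetase, had 10122, 10077 and 10630.3 normalized counts in -SG libraries, against 4874, 5015 and 4759.6 in Ctr libraries, a log2 fold change of 1.07 ± 0.03, although asparagine was in the medium of both groups. Prodh, which breaks proline down, had 403, 377 and 392 normalized counts in -SG libraries, against 752, 776 and 798 in Ctr libraries, opposite in direction to Pycr1, although the related reductase Pycrl also fell (-0.64).

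The enzymes that charge tRNA differed between cytosol and mitochondria. Of 22 genes for cytosolic aminoacyl-tRNA synthetases and their scaffold proteins Aimp1 and Aimp2, 13 rose and 5 fell, and of 18 mitochondrial ones 1 rose and 11 fell. The medians were 0.26 and -0.19. Sars, the cytosolic seryl-tRNA synthetase, had 9558, 9409.9 and 10536 normalized counts in -SG libraries, against 5987, 6024 and 6054 in Ctr libraries, a log2 fold change of 0.71 ± 0.04 (adjusted p = 8.89e-11). Lars, Aars and Nars, the cytosolic enzymes for leucine, alanine and asparagine, rose by 0.82, 0.79 and 0.77 on the log2 scale. Vars and Farsa, for valine and phenylalanine, fell (-0.57 and -0.37). Nars2, the mitochondrial asparaginyl-tRNA synthetase, had 158, 171 and 162 normalized counts in -SG libraries, against 322, 349.7 and 372 in Ctr libraries, a log2 fold change of -1.08 ± 0.09, opposite in sign to that of its cytosolic counterpart Nars. Iars2, the mitochondrial isoleucyl-tRNA synthetase, had 1566, 1504 and 1543 normalized counts in -SG libraries, against 2493, 2535 and 2437 in Ctr libraries. The mitochondrial synthetase that rose was Hars2 (0.23), and its call did not hold with Ctr replicate 2 as the only Ctr library (0.17, adjusted p = 0.0945).

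Genes that build ribosomes fell as a group. Of 45 tested ribosome biogenesis genes 39 were lower and none was higher in the limma test, with a median log2 fold change of -0.41, and no member reached 2-fold. For this list, and for each further list said to have none in a direction, limma at an unadjusted p under 0.05, edgeR and DESeq2 also gave 0. Nolc1, a nucleolar phosphoprotein, had 4915, 5057 and 5277 normalized counts in -SG libraries, against 8888, 8974 and 9175 in Ctr libraries, a log2 fold change of -0.83 ± 0.04 (adjusted p = 7.6e-12). Bop1 and Bysl, processing factors of the large and the small subunit, had 2125, 2180.1 and 2490.3 in -SG, against 3867, 3929 and 3978 in Ctr, and 1207, 1242 and 1433 in -SG, against 2111, 2171 and 2209 in Ctr. Rrp12 fell by a similar amount (-0.76). The groups did not overlap for any of these 4 genes. With Ctr replicate 2 as the only Ctr library 37 of the 45 were lower. Non-coding hosts of small nucleolar RNAs went the same way, with 9 of 17 lower and none higher, including Snhg5, with 759, 741 and 787 normalized counts in -SG libraries, against 1101, 1095 and 1151 in Ctr libraries, and the microRNA host Mir17hg (-0.80). Their median was -0.38, while the share of them called, 52.9%, was near that of all tested genes. The share of cytosolic ribosomal protein messages called, 48.1%, was near the 50.8% of all tested genes. Their median was nearer 0, at -0.16, with 37 of 79 lower and 1 higher. This count depended on -SG replicate 6, with 58 lower and a median of -0.23 without it. With Ctr replicate 2 as the only Ctr library the median was -0.14. Of 33 initiation and elongation factors 19 were lower and 3 higher. Eif4g1, the scaffold of the cap-binding complex, had 24214, 23814 and 24037 normalized counts in -SG libraries, against 31080.3, 30854 and 30720.3 in Ctr libraries, whereas Eif3c, an eIF3 subunit, had 20380.1, 20814 and 22039.7 normalized counts in -SG libraries, against 11416, 11617 and 11407 in Ctr libraries.

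Among genes that regulate mTORC1 or act below it, Sesn2, Ddit4 and Eif4ebp1 had the largest rises. Sesn2 and Ddit4 also count among the stress response effectors above, and Ddit4 among the hypoxia genes, so these rises are not separate results. Sesn2, a leucine sensor that restrains mTORC1, had 719, 679 and 779 normalized counts in -SG libraries, against 212, 190.3 and 162 in Ctr libraries, a log2 fold change of 1.95 ± 0.09 (adjusted p = 1.66e-11). Ddit4, the inhibitor REDD1, had 3838, 3607 and 3900.1 normalized counts in -SG libraries, against 1397, 1403 and 1214 in Ctr libraries, and Eif4ebp1, the translational repressor 4E-BP1, had 4625, 4494 and 5281 normalized counts in -SG libraries, against 2215, 2371 and 2261 in Ctr libraries. Deptor, a further mTOR inhibitor, fell (-0.69), and so did the arginine sensor Castor1, with -0.40, or -0.26 with Ctr replicate 2 as the only Ctr library, where it did not pass (adjusted p = 0.102). In all, 12 of 23 tested regulators rose and 4 fell.

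**Figure D2:**
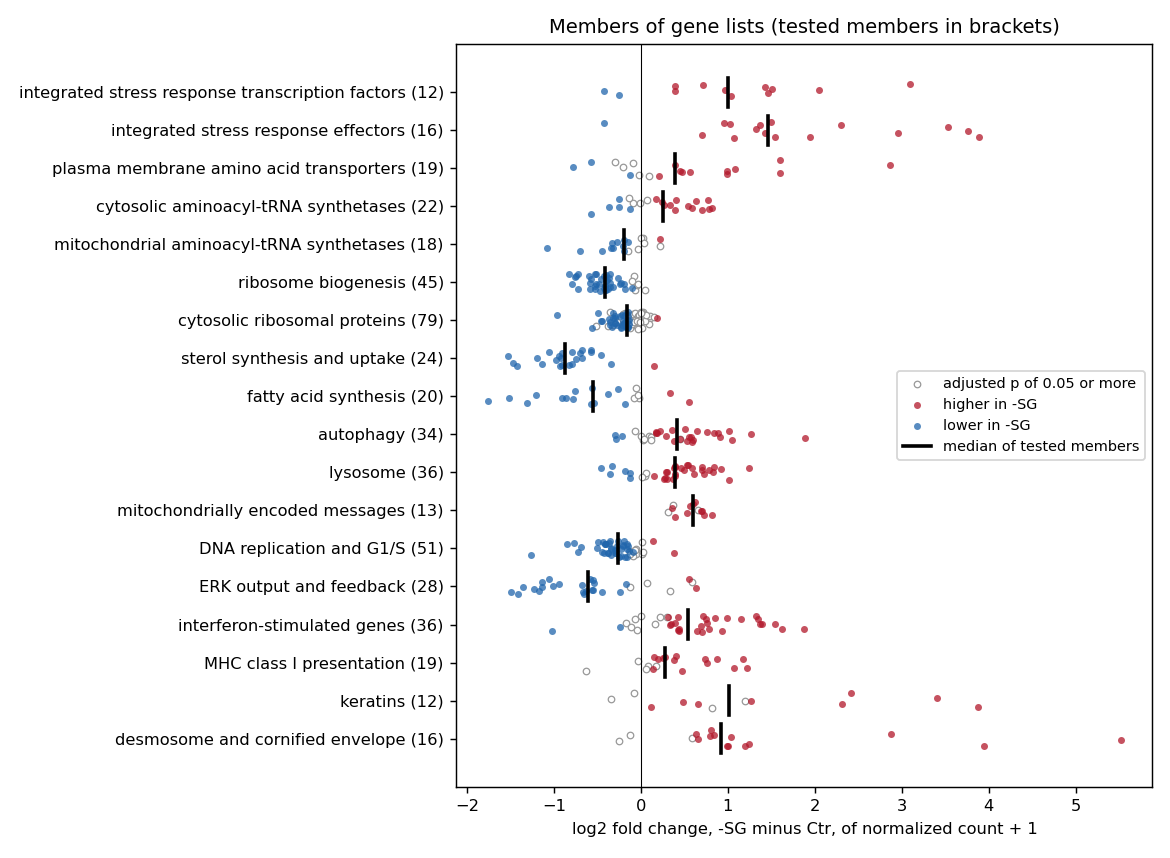
Log2 fold change of -SG minus Ctr for every tested member of 18 gene lists, with red points for members higher in -SG, blue points for members lower in -SG, open points for members that missed an adjusted p of 0.05 and a black bar at the median. Stress response lists lie to the right with medians of 1.00 and 1.47, and sterol synthesis and ribosome biogenesis lie to the left with medians of -0.87 and -0.41.

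Genes of sterol synthesis fell nearly throughout. Of 24 tested genes 23 were lower, 6 of them by at least 2-fold, and the median log2 fold change was -0.87. Lss, which closes the sterol ring, had 815, 820.2 and 868 normalized counts in -SG libraries, against 2447, 2371 and 2419.8 in Ctr libraries, a log2 fold change of -1.53 ± 0.05 (adjusted p = 3.16e-14). Insig1, an endoplasmic reticulum protein that retains the SREBP complex and is itself an SREBP target, had 836, 784 and 742 normalized counts in -SG libraries, against 2211, 2163 and 2149 in Ctr libraries. Idi1, an isomerase of the isoprenoid pathway, had 197, 172 and 115 normalized counts in -SG libraries, against 412, 377 and 498 in Ctr libraries, with the lowest level in replicate 6. Ebp was the exception, with 780.1, 761 and 869 normalized counts in -SG libraries, against 722, 727 and 711 in Ctr libraries and a log2 fold change of 0.16, or 0.14 with Ctr replicate 2 as the only Ctr library, where it did not pass (adjusted p = 0.209). A sterol response element, searched as TCACNCCAC (GTGGNGTGA on the other strand), was in 1 of 17 genes of the list with a promoter in the table (5.88%), against 1.33% of tested genes.

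Fatty acid synthesis and desaturation followed, with 14 of 20 genes lower and 2 higher. Scd1 and Scd2 encode stearoyl-CoA desaturases, which form monounsaturated fatty acids. Scd2 had 15188, 14213 and 13548 normalized counts in -SG libraries, against 41527, 40573 and 40364 in Ctr libraries, a log2 fold change of -1.51 ± 0.04 (adjusted p = 3.02e-15). Scd1 had 896, 874 and 899 normalized counts in -SG libraries, against 3022, 3053 and 2946 in Ctr libraries, a log2 fold change of -1.76 ± 0.04 (adjusted p = 3.02e-15). Fads2, a desaturase of polyunsaturated fatty acids, had 2790.3, 2767 and 3017 normalized counts in -SG libraries, against 6953, 7068 and 7192 in Ctr libraries, and Elovl6, an elongase, had 1763, 1823 and 1663 normalized counts in -SG libraries, against 4045, 4198 and 3862 in Ctr libraries. Slc25a1, the mitochondrial citrate carrier that feeds lipid synthesis, had 603, 630.4 and 666 normalized counts in -SG libraries, against 1298, 1328 and 1237 in Ctr libraries. Elovl7 and malic enzyme, Me1, rose (0.55 and 0.34). Pcyt2, of phosphatidylethanolamine synthesis, had 952, 864 and 1010.0 normalized counts in -SG libraries, against 1943, 1872 and 1839 in Ctr libraries. Soat2, which esterifies cholesterol, was near 0 in Ctr, with 29.3, 29.98 and 25.7 normalized counts in -SG libraries, against 1.78, 0 and 1.76 in Ctr libraries. Sphingolipid synthesis, which starts from serine, had 4 of 17 genes higher and 4 lower with a median of 0.02, and 2 higher and 2 lower with Ctr replicate 2 as the only Ctr library. The share of sphingolipid genes called, 47.1%, was near the 50.8% of all tested genes. The largest change of the list was in Sgms2, a sphingomyelin synthase (-0.70).

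Most tested genes of autophagy and the lysosome rose in -SG. Of 34 autophagy genes 23 were higher and 3 lower, and of 36 lysosome genes 27 were higher and 6 lower, with medians of 0.42 and 0.39. After Sqstm1, the largest autophagy rises were in Calcoco1, Bnip3 and Optn, which are receptors of selective autophagy. Calcoco1 had 594, 536 and 559 normalized counts in -SG libraries, against 224, 242 and 233 in Ctr libraries, and Bnip3 had 442, 431 and 457 normalized counts in -SG libraries, against 231, 202 and 209 in Ctr libraries. Grn, which encodes the lysosomal growth factor precursor progranulin, had 6345, 5862 and 6686 normalized counts in -SG libraries, against 2669, 2717 and 2604 in Ctr libraries, a log2 fold change of 1.24 ± 0.04 (adjusted p = 1.31e-13). Ctsd, the protease cathepsin D, had 4923, 4797 and 5306 normalized counts in -SG libraries, against 2462, 2499 and 2464 in Ctr libraries, a log2 fold change of 1.02 ± 0.04 (adjusted p = 6.76e-13). Atp6v0d1, a subunit of the lysosomal proton pump, had 1012, 1007 and 1104 normalized counts in -SG libraries, against 565, 536 and 544 in Ctr libraries. Against this direction, the cathepsin Ctsl had 11973, 12352 and 13141 normalized counts in -SG libraries, against 17144, 17099.6 and 17014 in Ctr libraries, and Ctsh also fell (-0.36). With Ctr replicate 2 as the only Ctr library the lysosome counts were 23 higher and 3 lower. Proteasome subunits changed little, with a median of 0.08 and 14 of 33 higher, or 8 with Ctr replicate 2 as the only Ctr library.

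TFEB and TFE3, which drive lysosomal genes, bind the palindrome TCACGTGA. It was in the promoters of 25.9% of 27 lysosome genes, in 3.57% of 28 autophagy genes and in 2.25% of tested genes with a promoter, or 0.974% of all promoters and 1.12% of all genes with one. These lists too were written from general knowledge, so their shares are not a result of the starvation data. The 3 members with the largest rise among those holding it are shown, with the palindrome in capitals. In these 3 the element began within 99 bases of the start.
Ctsd (chr7:142387819-142388026, minus strand, beginning 99 bases before the start): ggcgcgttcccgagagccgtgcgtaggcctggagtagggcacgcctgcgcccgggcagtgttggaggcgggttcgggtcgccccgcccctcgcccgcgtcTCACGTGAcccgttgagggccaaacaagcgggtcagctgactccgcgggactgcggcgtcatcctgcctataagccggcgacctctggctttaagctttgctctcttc
Atp6v0d1 (chr8:105566035-105566168, minus strand, beginning 4 bases before the start): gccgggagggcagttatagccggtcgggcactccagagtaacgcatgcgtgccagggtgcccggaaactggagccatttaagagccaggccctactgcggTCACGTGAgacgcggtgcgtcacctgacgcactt
Ctsa (chr2:164833660-164833802, plus strand, beginning 13 bases before and at base 5 after the start): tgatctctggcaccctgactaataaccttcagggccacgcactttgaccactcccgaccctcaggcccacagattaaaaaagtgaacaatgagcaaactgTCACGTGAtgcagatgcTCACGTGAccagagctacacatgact
Ctsa, the protective protein cathepsin A, had 1727, 1679.6 and 1938 normalized counts in -SG libraries, against 1246, 1178 and 1240.2 in Ctr libraries. Other holders, Atp6v1a and Cln3, chosen after their values were seen, had log2 fold changes of 0.05 and 0.06, so that the letters were also present in genes with little change.

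Mitochondrial genes were not moved in a single direction. All 13 tested messages of the mitochondrial genome had a positive log2 fold change, from 0.32 to 0.81, and 10 were called, while 4 of the 13 had libraries that overlapped between groups. mt-Cytb, which encodes cytochrome b, had 19877, 23079 and 18040.3 normalized counts in -SG libraries, against 12386, 11580.1 and 12607 in Ctr libraries, a log2 fold change of 0.73 ± 0.08 (adjusted p = 8.39e-07). mt-Nd2, a complex I subunit, had 7319, 9616 and 6162 normalized counts in -SG libraries, against 4606, 4569 and 4894 in Ctr libraries, highest in replicate 5 and lowest in replicate 6. As a share of reads, mitochondrial messages made up 0.462 ± 0.0861% in -SG and 0.294 ± 0.0133% in Ctr (SD, n = 3 each, two-sided exact permutation p = 0.1, the smallest that 3 against 3 can give). Of 76 nuclear genes of the respiratory chain 16 were higher and 19 lower, with 34 lower without -SG replicate 6 and 7 higher with Ctr replicate 2 as the only Ctr library. Apart from Cox6a2, the largest rise was in Uqcrq, a complex III subunit, with 2872, 2625 and 3355 normalized counts in -SG libraries, against 1795, 1850.5 and 1849 in Ctr libraries, and the largest fall in Atp5b, the ATP synthase beta subunit, with 27146, 26243 and 29834 normalized counts in -SG libraries, against 37472, 37865 and 37988 in Ctr libraries. Of 77 mitochondrial ribosomal proteins 28 were lower and 4 higher, or 42 lower and 3 higher without -SG replicate 6. The shares called were 46.1% of the nuclear respiratory chain genes and 41.6% of the mitochondrial ribosomal proteins. Both were below the 50.8% of all tested genes. Hspd1, the chaperone HSP60, had 9806, 10167 and 9902 normalized counts in -SG libraries, against 16645, 16864 and 17065 in Ctr libraries, whereas the matrix protease Lonp1 had 5718, 5717 and 6469 normalized counts in -SG libraries, against 3462, 3445 and 3371 in Ctr libraries. Pdk2, a kinase that turns pyruvate dehydrogenase off, had 89.2, 88.3 and 89.8 normalized counts in -SG libraries, against 18.7, 14.9 and 17.6 in Ctr libraries, and Pdp2, a phosphatase that turns it on, had 414, 419 and 360.2 normalized counts in -SG libraries, against 831, 773 and 767 in Ctr libraries. Slc25a48, a mitochondrial carrier, had 841, 878 and 905 normalized counts in -SG libraries, against 192, 192 and 196 in Ctr libraries.

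Glutathione S-transferases, which conjugate glutathione to reactive compounds, had 10 of 18 members higher and 1 lower, and the largest rises were in the alpha class. Gsta4, known for its action on lipid aldehydes, had 883, 928 and 1091 normalized counts in -SG libraries, against 94.3, 94.6 and 95.9 in Ctr libraries, a log2 fold change of 3.33 ± 0.08 (adjusted p = 8.97e-16). Gsta2 had 93.2, 105 and 107 normalized counts in -SG libraries, against 0.890, 3.19 and 3.52 in Ctr libraries. Gsta1 had 159 reads in the 3 -SG libraries and none in the 3 Ctr libraries, at least 58.8-fold higher against a floor of 3 reads over the group. The near identity of Gsta1 and Gsta2 could let reads be split between them. Both were under 10 in every Ctr library and met the count filter through other libraries, so a fall could hardly be called for them. Mgst1, a membrane-bound transferase, had 142, 132 and 152 normalized counts in -SG libraries, against 54.3, 40.4 and 34.3 in Ctr libraries. The NRF2 element, searched as TGACNNNGC (GCNNNGTCA on the other strand), was in 12.5% of 16 such genes with a promoter and in 17% of tested genes. Chac1, which breaks glutathione down and is also a stress response gene, had 1464, 1517 and 1785 normalized counts in -SG libraries, against 586, 638 and 612 in Ctr libraries. Genes that remove superoxide and peroxide mostly fell, with 10 of 19 lower and 3 higher. Gpx1, the cytosolic glutathione peroxidase, had 3578, 3449 and 4128 normalized counts in -SG libraries, against 5601, 5738 and 5695 in Ctr libraries, and Cat, catalase, had 1894, 1866 and 1906 normalized counts in -SG libraries, against 1265, 1271 and 1296 in Ctr libraries. Both metallothioneins tested rose, Mt2 by 0.77 and Mt1 by 0.56 on the log2 scale. In iron handling, ferritin light chain, Ftl1, had 14746, 14466 and 17536 normalized counts in -SG libraries, against 8787, 8684 and 9614 in Ctr libraries, and the transferrin receptor, Tfrc, had 8129, 9014 and 6304 normalized counts in -SG libraries, against 11256, 11461 and 11561 in Ctr libraries.

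Genes of DNA replication and the G1 to S transition fell, while mitotic genes had a median nearer 0. Of 51 replication genes 39 were lower and 2 higher, with a median of -0.26. Of 42 mitotic genes 16 were lower and 7 higher, with a median of -0.06. With Ctr replicate 2 as the only Ctr library the medians were -0.25 for replication and -0.05 for mitotic genes. In irradiated cells, IR -SG against IR, they were -0.09 and 0.17. Dna2, a nuclease and helicase of replication, had 202, 233 and 198 normalized counts in -SG libraries, against 498, 547 and 472 in Ctr libraries, a log2 fold change of -1.26 ± 0.09 (adjusted p = 3.22e-09). Rrm2, the ribonucleotide reductase subunit that supplies deoxynucleotides, had 3363, 3360.1 and 3282 normalized counts in -SG libraries, against 5335, 5592 and 5582 in Ctr libraries, and E2f8, an atypical E2F factor, had 1273, 1329 and 1245 normalized counts in -SG libraries, against 2263, 2313 and 2346 in Ctr libraries. Cdc25c, a phosphatase that starts mitosis, rose (0.45). Purine enzymes had no rise among 15 tested in the limma fit and 12 falls, and pyrimidine enzymes had 3 rises and 16 falls among 21. Gart, which uses 10-formyltetrahydrofolate in purine synthesis, had 3069.9, 3129 and 3279 normalized counts in -SG libraries, against 5264, 5269 and 5310.2 in Ctr libraries. Upp1, which breaks uridine down, had 185, 172 and 202 normalized counts in -SG libraries, against 621, 595 and 582 in Ctr libraries. Of 31 genes of homologous recombination and the Fanconi pathway 15 were lower and 3 higher, and of 29 genes of other repair pathways 12 were lower and 2 higher. The shares called, 58.1% and 48.3%, lie near the 50.8% of all tested genes. Ung, the uracil glycosylase, had 327, 337 and 328 normalized counts in -SG libraries, against 573, 579 and 564 in Ctr libraries. Genes known as p53 targets were mixed, with 12 of 24 higher and 6 lower in these p53-deficient cells. Gadd45a, a growth arrest gene, had 552, 545 and 663 normalized counts in -SG libraries, against 115, 123 and 115 in Ctr libraries, and Fas, a death receptor, had 225, 256 and 279 normalized counts in -SG libraries, against 66.7, 72.3 and 65.97 in Ctr libraries. Gadd45a also counts among the stress response effectors.

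Interferon-stimulated genes rose without radiation. Of 36 tested members 26 were higher, 8 of them by at least 2-fold, and 2 were lower, with a median log2 fold change of 0.54. Gbp2, a guanylate-binding GTPase, had 833, 734 and 793 normalized counts in -SG libraries, against 235, 255 and 273 in Ctr libraries, a log2 fold change of 1.63 ± 0.07 (adjusted p = 4.8e-12). Oas3, which makes the second messenger that activates RNase L, had 124, 95.8 and 91.9 normalized counts in -SG libraries, against 40.9, 41.5 and 24.6 in Ctr libraries, and Ifi44 had 47.9, 47.5 and 34.2 normalized counts in -SG libraries, against 9.79, 11.7 and 11.4 in Ctr libraries. For all 3 genes each -SG library lay above each Ctr library. Cxcl10, an interferon-induced chemokine, ran against the list, with 54.6, 39.1 and 37.4 normalized counts in -SG libraries, against 83.7, 91.4 and 90.6 in Ctr libraries, a log2 fold change of -1.02 ± 0.14 (adjusted p = 1.28e-05). In MHC class I presentation 14 of 19 genes were higher and none was lower in the limma test. Tap1 and Tap2, which pump peptides into the endoplasmic reticulum, had 285, 226 and 232 in -SG, against 110.4, 105 and 135 in Ctr, and 723, 715 and 768 in -SG, against 404, 390.1 and 403 in Ctr. H2-T23, a non-classical class I gene, had 419, 333 and 442 normalized counts in -SG libraries, against 178, 173 and 158 in Ctr libraries. Without -SG replicate 6 the interferon counts were 26 higher and 3 lower, and with Ctr replicate 2 as the only Ctr library they were 25 and 2. The 7 summed macrophage genes were at 6.66, 1.67 and 4.28 in -SG and 74.8, 3.19 and 130.2 in Ctr, and their part in these values was not tested.

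Secreted inflammatory factors did not rise as a group. Of 17 chemokines and colony-stimulating factors 4 were higher and 8 lower, or 5 lower with Ctr replicate 2 as the only Ctr library. Csf3, which encodes the granulocyte factor G-CSF that 4T1 cells are known to secrete, had 238, 256 and 258 normalized counts in -SG libraries, against 545, 541 and 568 in Ctr libraries, a log2 fold change of -1.13 ± 0.07 (adjusted p = 8.44e-10). Ccl2, a monocyte chemokine, had 31.9, 30.8 and 26.7 normalized counts in -SG libraries, against 50.7, 58.5 and 65.97 in Ctr libraries. Cxcl5 and Vegfa rose, with 310.2, 289.8 and 270.4 in -SG, against 175, 152 and 149 in Ctr, and 784, 729 and 783 in -SG, against 474, 474 and 471 in Ctr. Tnfaip3, which ends NF-kB signals, had 2507, 2618 and 2473 normalized counts in -SG libraries, against 3619, 3699 and 3624 in Ctr libraries. It was in a list of 20 NF-kB genes with 6 higher and 4 lower. The share called in that list, 50%, was near the 50.8% of all tested genes.

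The balance of epithelial and mesenchymal messages shifted. Of 10 epithelial markers 8 were higher in -SG and none was lower in the limma test, and their summed level was 80731, 79479.9 and 87837 normalized counts in -SG and 64121, 63839.7 and 63799 in Ctr. Cdh1, which encodes E-cadherin, had 16294, 16107 and 15919.8 normalized counts in -SG libraries, against 10295, 10171 and 10257 in Ctr libraries, a log2 fold change of 0.65 ± 0.03 (adjusted p = 4.17e-12). Cldn4, a tight junction claudin, had 6169, 5982 and 6926 normalized counts in -SG libraries, against 2697, 2620.0 and 2617 in Ctr libraries, and Krt19, a keratin of simple epithelium, had 2189.9, 2183 and 2576 normalized counts in -SG libraries, against 930.0, 975 and 963 in Ctr libraries. Krt18 did not pass the test, with a log2 fold change of -0.08 (adjusted p = 0.105). The rises of Krt7 and Cldn7 were small, with log2 fold changes of 0.12 and 0.20, and 0.11 and 0.20 with Ctr replicate 2 as the only Ctr library. The 7 mesenchymal markers in the table summed to 61884, 60687 and 60573 in -SG and 103669.8, 103829 and 102013 in Ctr. Besides Vim, Zeb2, a repressor of E-cadherin, had 486, 527 and 432 normalized counts in -SG libraries, against 886, 842 and 822 in Ctr libraries, Twist1 had 216, 213 and 204 normalized counts in -SG libraries, against 290.1, 301 and 275 in Ctr libraries, and Fn1, fibronectin, had 36754, 36863 and 34361 normalized counts in -SG libraries, against 48659, 47324 and 46093 in Ctr libraries. Against this direction, Zeb1 and Snai1 were low to moderate and higher in -SG, with log2 fold changes of 0.82 and 0.20. With Ctr replicate 2 as the only Ctr library they were 0.69 and 0.21.

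Most tested keratins and desmosome or cornified envelope genes rose. Of 12 tested keratins 8 were higher and none was lower in the limma test, though 2 were lower without -SG replicate 6 or with quantile normalization, and with no filter on low values the median turned to -1.19. Of 34 desmosome and cornified envelope genes 16 were tested, and 13 of these were higher and none lower. The other 18 missed the count filter or were not in the table. A gene low in Ctr can pass that filter through starved libraries alone, so the absence of falls holds for tested members only. Krt16, a keratin of stressed epidermis, had 1310.0, 1252 and 1535 normalized counts in -SG libraries, against 101, 83.97 and 90.6 in Ctr libraries, a log2 fold change of 3.88 ± 0.08 (adjusted p = 2.77e-16). Krt17 had 201, 224 and 295 normalized counts in -SG libraries, against 47.2, 34.01 and 51.02 in Ctr libraries. Cdsn, corneodesmosin, had 503, 518 and 562 normalized counts in -SG libraries, against 34.7, 32.9 and 32.5 in Ctr libraries, a log2 fold change of 3.94 ± 0.10 (adjusted p = 4.49e-15). Sbsn, suprabasin, had 90.5, 68.3 and 92.99 normalized counts in -SG libraries, against 15.1, 4.25 and 16.7 in Ctr libraries, and Evpl, envoplakin, had 249, 292 and 322 normalized counts in -SG libraries, against 124, 123 and 113 in Ctr libraries. The desmosome parts Jup and Pkp1 rose as well, with log2 fold changes of 1.01 and 1.03, a pair chosen after the values were seen. Krt10, a keratin of differentiated epidermis, did not pass the test (-0.34, adjusted p = 0.0984), Krt1, its partner, was at 0, 1.67 and 2.14 in -SG and 28.5, 3.19 and 16.7 in Ctr, and Lor, loricrin, was at 0 in each -SG library and at 0, 0 and 4.40 in Ctr. With Ctr replicate 2 as the only Ctr library the medians were 1.57 for keratins and 1.03 for desmosome and cornified envelope, against 1.01 and 0.92. Krt5, whose values stand above, was among the 25 keratins that did not pass the count filter. The part of the skin messages of Ctr replicates 1 and 3 in these values was not tested. Of the other basal markers, Acta2 was at 13.3, 12.5 and 8.55 in -SG and 7.12, 14.9 and 11.4 in Ctr and did not pass the test (adjusted p = 0.864), and Trp63 was at 1.33, 3.33 and 2.14 in -SG and 5.34, 0 and 3.52 in Ctr.

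**Figure D3:**
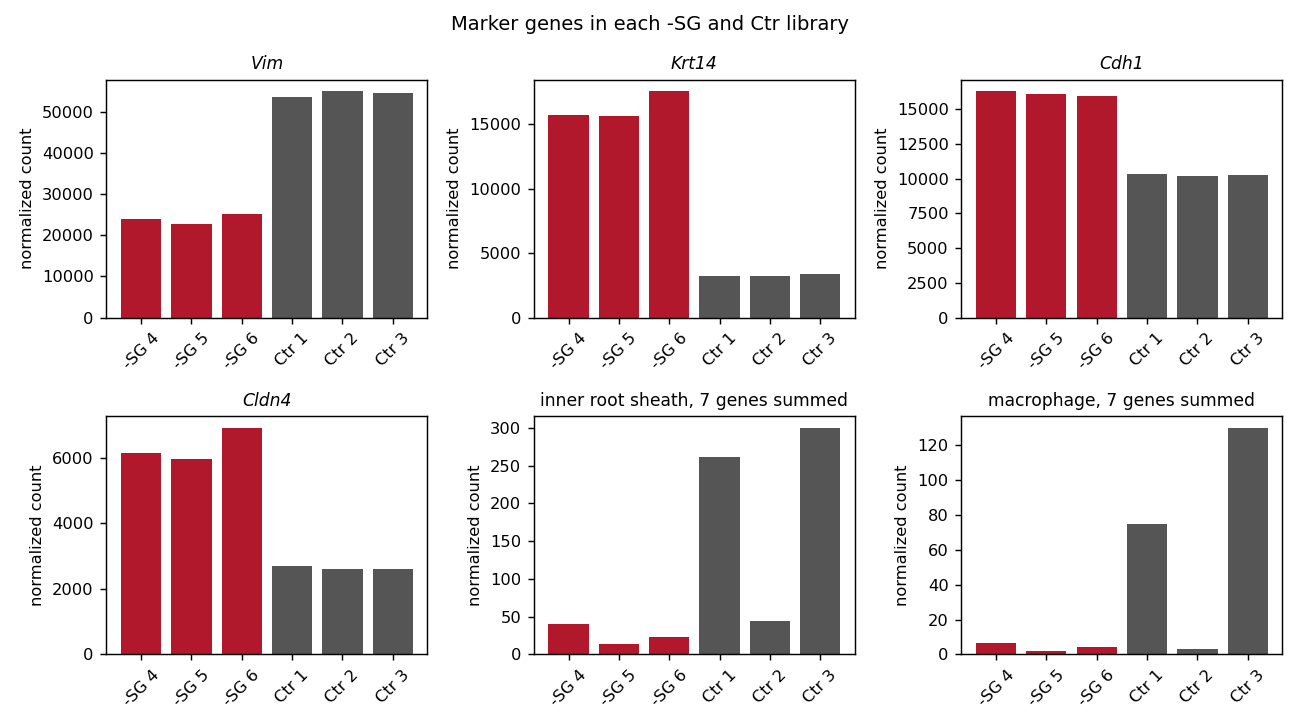
Normalized counts in each -SG (red) and Ctr (grey) library for Vim, Krt14, Cdh1 and Cldn4, and summed counts of 7 inner root sheath and 7 macrophage genes, on axes that start at 0. Vim is at 22675 to 25142 in -SG and 53472 to 55005 in Ctr, whereas the summed inner root sheath and macrophage messages stand out in Ctr replicates 1 and 3 alone, at 261.7 to 299.9 and 74.8 to 130.2.

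Targets and feedback inhibitors of ERK signalling fell. Of 28 tested genes 22 were lower, 9 of them by at least 2-fold, and 2 were higher, with a median of -0.61. Spry4 and Spry1, inhibitors of receptor tyrosine kinase signals, had 79.9, 88.3 and 98.3 in -SG, against 249, 246 and 259 in Ctr, and 204, 182 and 197 in -SG, against 502, 518 and 466 in Ctr. Etv4, an ETS factor downstream of ERK, had 576, 659 and 742 normalized counts in -SG libraries, against 1760.4, 1702 and 1762 in Ctr libraries, a log2 fold change of -1.41 ± 0.07 (adjusted p = 2.79e-11). Ier3, an immediate early gene, had 948, 1042 and 1042 normalized counts in -SG libraries, against 2395, 2248 and 2436 in Ctr libraries. Against this direction, Junb had 5077, 4498 and 5299 normalized counts in -SG libraries, against 3073, 3391 and 3073 in Ctr libraries, and Dusp1, a phosphatase of p38 and JNK, had 192, 196 and 229 normalized counts in -SG libraries, against 155, 114 and 151 in Ctr libraries. Of 23 matrix proteases and hyaluronan genes 13 were lower and 6 higher. Mmp9, gelatinase B, had 913, 955 and 982 normalized counts in -SG libraries, against 2362, 2270.3 and 2241 in Ctr libraries, Mmp3, stromelysin, had 218, 157 and 185 normalized counts in -SG libraries, against 711, 669.6 and 715 in Ctr libraries, and Has2, hyaluronan synthase, had 666, 620.4 and 503 normalized counts in -SG libraries, against 1869, 1925 and 1977 in Ctr libraries. Adam8 and Mmp15, membrane-bound proteases, rose (1.26 and 1.19). Ccn2 and Ankrd1, targets of YAP, had 1939.6, 1986 and 2014 in -SG, against 4373, 4564 and 4764 in Ctr, and 1869, 1976 and 2048 in -SG, against 4270.2, 4361 and 4319.8 in Ctr, in a list with 6 of 13 lower and 3 higher. The Notch ligands moved apart, with 55.9, 40.8 and 54.5 normalized counts in -SG libraries, against 247, 217 and 209 in Ctr libraries for Dll4 and 475, 446 and 455 normalized counts in -SG libraries, against 267, 261 and 244 in Ctr libraries for Dll1. Among Wnt genes Notum, a secreted enzyme that inactivates Wnt proteins, had 54.6, 62.5 and 68.4 normalized counts in -SG libraries, against 11.6, 9.57 and 10.6 in Ctr libraries, and Wnt9a had 198, 199 and 205 normalized counts in -SG libraries, against 71.2, 78.7 and 87.1 in Ctr libraries. Car12, a carbonic anhydrase often used as a hypoxia gene, had 586, 614 and 638 normalized counts in -SG libraries, against 1576, 1639 and 1591 in Ctr libraries, while Ndrg1, of the same list, had 7583, 7326 and 7877 normalized counts in -SG libraries, against 2620.1, 2211 and 2434 in Ctr libraries, so that hypoxia genes were split, 10 higher and 4 lower of 17.

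Of the 2929 tested genes that GENCODE M21 does not label protein-coding, mostly pseudogenes and including IDs absent from it, 260 were higher and 436 lower. This is a smaller share than the 50.8% of all tested genes. Neat1, the architectural RNA of paraspeckles, had 9403, 9357 and 9342 normalized counts in -SG libraries, against 4535, 4221 and 4460.5 in Ctr libraries, a log2 fold change of 1.09 ± 0.05 (adjusted p = 2.13e-11). Lockd, a non-coding RNA downstream of Cdkn1b, had 370.1, 396 and 416 normalized counts in -SG libraries, against 206, 241 and 223 in Ctr libraries, and Norad, which sequesters Pumilio proteins, had 1117, 1148 and 1131 normalized counts in -SG libraries, against 794, 765 and 769.7 in Ctr libraries. Among falls, Morrbid, a non-coding RNA that controls Bcl2l11 in myeloid cells, had 137, 147 and 152 normalized counts in -SG libraries, against 319, 302 and 279.7 in Ctr libraries, Mirt1 had 624, 621 and 627 normalized counts in -SG libraries, against 1321, 1250.0 and 1237 in Ctr libraries, and Map2k3os had 77.2, 74.1 and 76.95 normalized counts in -SG libraries, against 165, 173 and 160.1 in Ctr libraries. No overlap between the groups was a condition for picking these 6 genes. Map2k3os lies antisense to Map2k3, and because the sources used here give no strand setting for the counting, reads of the pair may not be told apart.

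The contrast was repeated in irradiated cells, IR -SG against IR, which share no library with -SG and Ctr. Of the 7413 genes changed without radiation 6889 (92.9%) had the same sign with radiation and 5291 were called in that direction. Of the 868 genes changed at least 2-fold, 818 (94.2%) had the same sign and 646 were called. Across the 14592 genes, which are not independent, Pearson's r of the 2 sets of log2 fold changes was 0.75 and Spearman's rho 0.73. The effect was smaller with radiation, with a median ratio of 0.79 over changed genes and 0.65 over those changed at least 2-fold. These genes were selected on the contrast without radiation, which makes a smaller second value more likely. The interaction, which tests the difference itself, called 1280 genes (8.77%), or 2007 without -SG replicate 6 and 500 with Ctr replicate 2 as the only Ctr library. The effect was smaller in size with radiation for 814 of the 1280 and larger for 466, and 427 of the 1280 had opposite signs. Sterol synthesis had a median of -0.87 without and -0.61 with radiation, interferon-stimulated genes 0.54 and 0.20, and keratins 1.01 and 0.44. Other medians were further from 0 with radiation, with -0.21 and -1.20 for chemokines and colony-stimulating factors, -0.41 and -0.77 for matrix proteases and hyaluronan, and -0.61 and -0.78 for ERK output. Those of mitotic genes (-0.06 and 0.17), the interleukin-1 family (0.09 and -0.87) and the 6 tested histones (0.21 and -1.49) had opposite signs.

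All 30 leading genes were called in the same direction with radiation, and 13 passed the interaction test, 11 rises and 2 falls. Krt16 had a log2 fold change of 3.88 without and 2.32 with radiation, a difference, with minus without radiation, of -1.55 ± 0.11 (SE, adjusted p = 1.58e-07). Niban1 had 3.77 and 2.43, and Atf5 3.09 and 2.33. Scd1 fell by less with radiation (-1.76 and -1.37), and Itgb2 by more (-1.60 and -2.37). Aldh1l2, Gsta2, Angptl6 and Fut1 did not pass the test of the difference, and for Aldh1l2 the values were 3.50 and 3.80, a difference of 0.30 ± 0.15 (SE, adjusted p = 0.233).

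**Figure D4:**
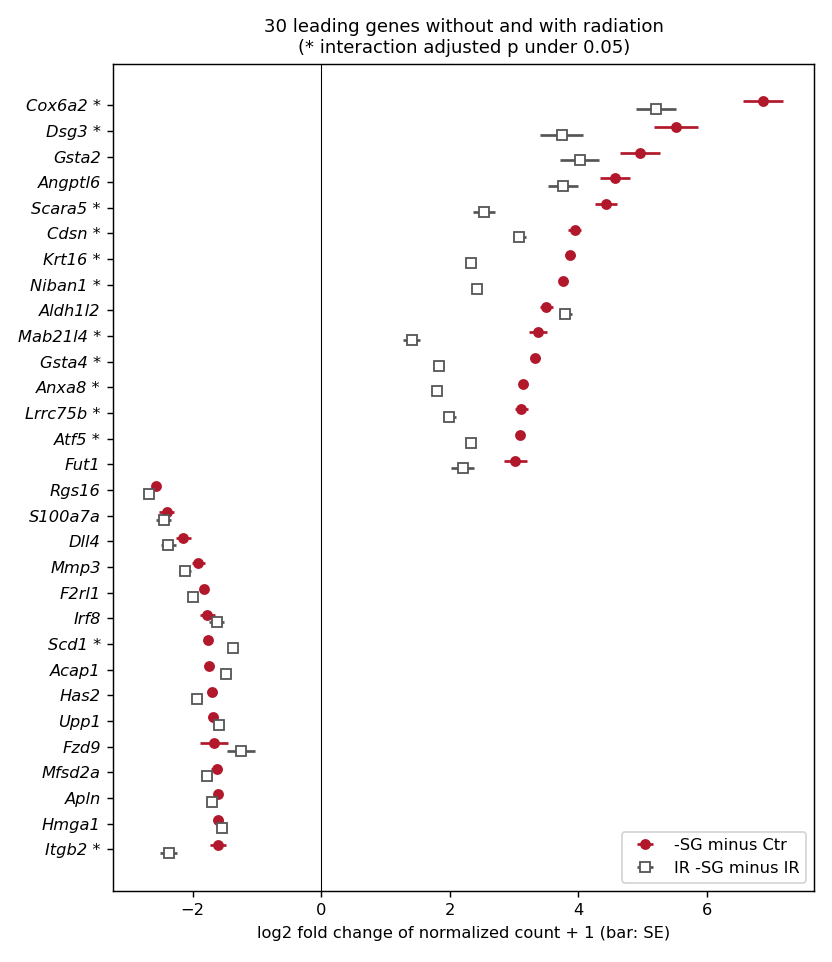
Log2 fold change with its standard error for the 30 leading genes in -SG minus Ctr (red circles) and in IR -SG minus IR (open grey squares), with an asterisk where the interaction passed an adjusted p of 0.05. Of the 15 rises 14 are smaller with radiation, and the falls with an asterisk are Scd1, at -1.76 and -1.37, and Itgb2, at -1.60 and -2.37.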

How the data were processed

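Total RNA of 12 cultures of 4T1 cells, 3 in each of 4 groups, was depleted of ribosomal RNA and sequenced with a stranded paired-end kit, and -SG and Ctr were compared here. The authors checked reads with FastQC, aligned them to GRCm38 with HISAT2 and TopHat, counted them with featureCounts on Galaxy and normalized them with DESeq2 in R 3.3.1. For other versions, and for the strand setting of the counting, the sources used here give nothing. The deposited signal is one normalized count per gene and library, a read count divided by a size factor. Whole reads were recovered for 100.0% of values within a tolerance of 0.001, which gave 12540160 to 20066659 reads per library.

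Values were fitted as log2(normalized count + 1) with limma 3.58.1 in R 4.3.3, with the 4 groups in one model, empirical Bayes with an intensity trend, and Benjamini-Hochberg adjustment over 14592 genes. The threshold was 0.05, and a count of calls is read beside the share of all tested genes called. The fold change understates changes of low genes. The fit was also run on simulated counts with few changed genes and no GC or length bias between libraries. That setting differs from these data, so the run does not test the fit for them. Names came from GENCODE M21, which held 20527 of the 20587 IDs. The alternatives were other pseudocounts, filters and scalings, the 6 libraries alone, each replicate left out, edgeR 4.0.16 and DESeq2 1.42.0 on the recovered reads, and Ctr replicate 2 as the only Ctr library. edgeR called 3775 genes higher and 3618 lower, and DESeq2 3353 higher and 3297 lower. Named genes were the 15 largest rises and falls and leading non-coding genes, all picked among genes without overlap between the groups. Up to 4 members of each list with the largest change and up to 2 against its median were also named. The 8 most abundant genes changed 2-fold and the markers were added. Promoters, of the genes with the largest rise among those holding a motif, came from RefSeq. The members and lists were chosen with earlier results of these data known. Some lists share members. Values of some genes are not reported here.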

Additional observations from a re-analysis of the deposited data

Results flagged for a closer look

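The change with starvation differed between irradiated and non-irradiated cells, by the interaction term of the limma fit, for 13 of the 30 leading genes. The values are the log2 fold change with radiation minus that without. The interaction was -1.67 for Cox6a2 and -1.78 for Dsg3, genes at or near 0 in Ctr libraries, and -1.89 for Scara5. It was -0.86 for Cdsn and -1.55 for Krt16, genes of stratified epithelium, and -1.35 for Anxa8, an annexin. For the stress genes it was -1.34 for Niban1 and -0.76 for Atf5, and it was -1.50 for Gsta4. Mab21l4 had -1.96 and Lrrc75b -1.12. All these rises were smaller with radiation. Among the falls, Scd1 had 0.38, a smaller fall with radiation, and Itgb2 had -0.77, a larger one.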

How the results depend on the processing

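The counts of genes higher and lower in -SG stayed within 1.5 times the value in every alternative but one, with 3316 to 3889 higher and 3222 to 3907 lower when single libraries were left out. With Ctr replicate 2 as the only Ctr library, an alternative chosen after seeing the data, 2455 genes were lower. Counts of 2-fold changes depended on low genes. Those at least 2-fold higher were 375 with a pseudocount of 8 and 222 among genes averaging 100 or more, and those at least 2-fold lower were 147 and 104 in the same settings and 418 with no filter. The interaction gave 888 to 2007 genes when single libraries were left out, the highest without -SG replicate 6, 500 with Ctr replicate 2 as the only Ctr library, and 915 with the replicate block. No paired analysis was possible because -SG and Ctr share no replicate number, and the numbers that IR shares with Ctr and IR -SG with -SG did not pair the libraries, with correlations of deviations from -0.147 to 0.035. The cause of these shifts was not tested.

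Of the list medians under alternatives, 1387 stayed within the spread, 176 moved and 11 changed sign. Branched-chain breakdown had 0.0008 with equal totals and 0.0055 with Ctr replicate 2 alone, mitochondrial carriers 0.0045 with equal totals, pyruvate entry -0.0256 with Ctr replicate 2 alone, histones -0.3647 among genes averaging 100 or more, and keratins -1.1867 with no filter. The interleukin-1 family had -0.2898 with no filter, -0.0145 with quantile normalization, and -0.072 to 0.1495 when single libraries were left out. Named genes kept call and direction in 8910 cases, lost the call in 147 and gained it in 3.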

Other observations

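Several further genes changed that belong to no comparison above. Hspb1, a small heat shock protein, had 253, 227 and 231 normalized counts in -SG libraries, against 62.3, 42.5 and 51.9 in Ctr libraries, a log2 fold change of 2.18 ± 0.15, and Cryab, a related chaperone, rose by 1.03 on the log2 scale. Txnip, which restrains glucose uptake, had 588, 570.4 and 572 normalized counts in -SG libraries, against 135, 121 and 106 in Ctr libraries, and its relative Arrdc4 had 75.9, 90.8 and 76.95 normalized counts in -SG libraries, against 21.4, 17.01 and 27.3 in Ctr libraries. Sqor, the mitochondrial sulfide oxidase, had 93.2, 104 and 111 normalized counts in -SG libraries, against 22.2, 24.4 and 20.2 in Ctr libraries. Odc1, which starts polyamine synthesis, had 4976, 4966 and 5223 normalized counts in -SG libraries, against 9348, 9523 and 8962 in Ctr libraries, whereas Arg1, which makes its substrate, had 47.9, 50.8 and 47.03 normalized counts in -SG libraries, against 14.2, 10.6 and 18.5 in Ctr libraries. Casp1, the inflammatory caspase, had 101, 122 and 98.3 normalized counts in -SG libraries, against 47.2, 46.8 and 34.3 in Ctr libraries, and Il1rap, a shared receptor chain of the interleukin-1 family, had 239.6, 252 and 189 normalized counts in -SG libraries, against 429, 463 and 479 in Ctr libraries. For these genes the groups did not overlap.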
